A study of Mus musculus with 4 samples.

Results

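The genes described here are 10 transcription factors that set the identity of pancreatic beta cells: Pdx1, Mafa, Nkx6-1, Nkx2-2, Neurod1, Pax6, Isl1, Foxa2, Insm1 and Rfx6. They were taken by gene symbol. For each, the probe set whose only annotated symbol is that gene was used, which gave 10 of 10 genes out of 22180 measured. None of the 10 had a second such probe set, and 3 further probe sets that list one of these symbols beside another gene were not used.

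The cells were Beta-TC-6, an established beta cell line from a mouse whose insulinoma was driven by a viral large T antigen under the insulin promoter. The comparison had 2 arrays in each of its groups. The siNF90 cells were transfected with a mixture of 3 RNAi duplexes against NF90, a double-stranded RNA-binding protein, and the siNTC cells with a negative control siRNA. Both groups grew in medium with 25 mM glucose, 15% fetal bovine serum and 1% antibiotic and were transfected with the same lipid reagent. The time between transfection and harvest is not given in the sources used here. RNA of both (250 ng input) was hybridized to Affymetrix Mouse Gene 2.1 ST arrays, which read whole transcripts in a single colour. The depletion of NF90 itself was not analysed here, so siNF90 is used as a label. The labels do not say that the arrays came from separate cultures, so each p-value reflects array-to-array spread alone, possibly of technical origin.

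Beta cells arise from pancreatic progenitors through a cascade of transcription factors. Foxa2 opens chromatin early, Pdx1 marks the progenitors and later the mature beta cell, and Neurod1, Insm1, Rfx6, Nkx2-2, Pax6 and Isl1 act in the endocrine lineage shared by all islet cell types. Nkx6-1 and Mafa are the factors most tied to the mature beta cell, where with Pdx1 and Neurod1 they keep the insulin gene and the genes of glucose sensing switched on. Loss of any of several of them in adult mouse beta cells lowers insulin production and lets genes of other islet cells come on.

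All 10 factors had signal above the median of all genes (1.845 on the log2 scale) on every array, with values between 3.53 and 8.70 in siNF90 and between 3.29 and 8.48 in siNTC. In mean signal 8 were higher in siNF90, Rfx6 was lower, and Pax6 had the same mean in both. Of all 22180 genes 11773 were higher and 10153 lower, the background for this and later counts of direction. The differences ran from -0.14 to 0.45 (log2, siNF90 minus siNTC), with a median of 0.14 beside 0.015 for all genes. None of the 10 reached the threshold of 0.05 in limma after adjustment over all genes (adjusted p between 0.397 and 1), nor did any other gene (0% of 22180). At an unadjusted p under 0.05, 3 of the 10 were called, all higher in siNF90, beside 5.87% of all genes called higher at that limit. When limma's variance prior was allowed to vary with signal level (a trend), 0 of the 10 were called, beside 0.234% of all genes called higher.

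Array by array, 5 of the 10 had both siNF90 values above both siNTC values, an arrangement found in 21.9% of all genes and in 26.3% of the 11455 genes at or above the median level. Rfx6 alone had both siNF90 values below both siNTC values, which was so for 17.9% of all genes and 21.8% of those at or above the median level. No test of the 10 as a list was made, since they were chosen with results of these arrays known. RNA came from whole cultures, so fewer cells with a transcript and less of it per cell cannot be told apart.

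**Figure D1:**
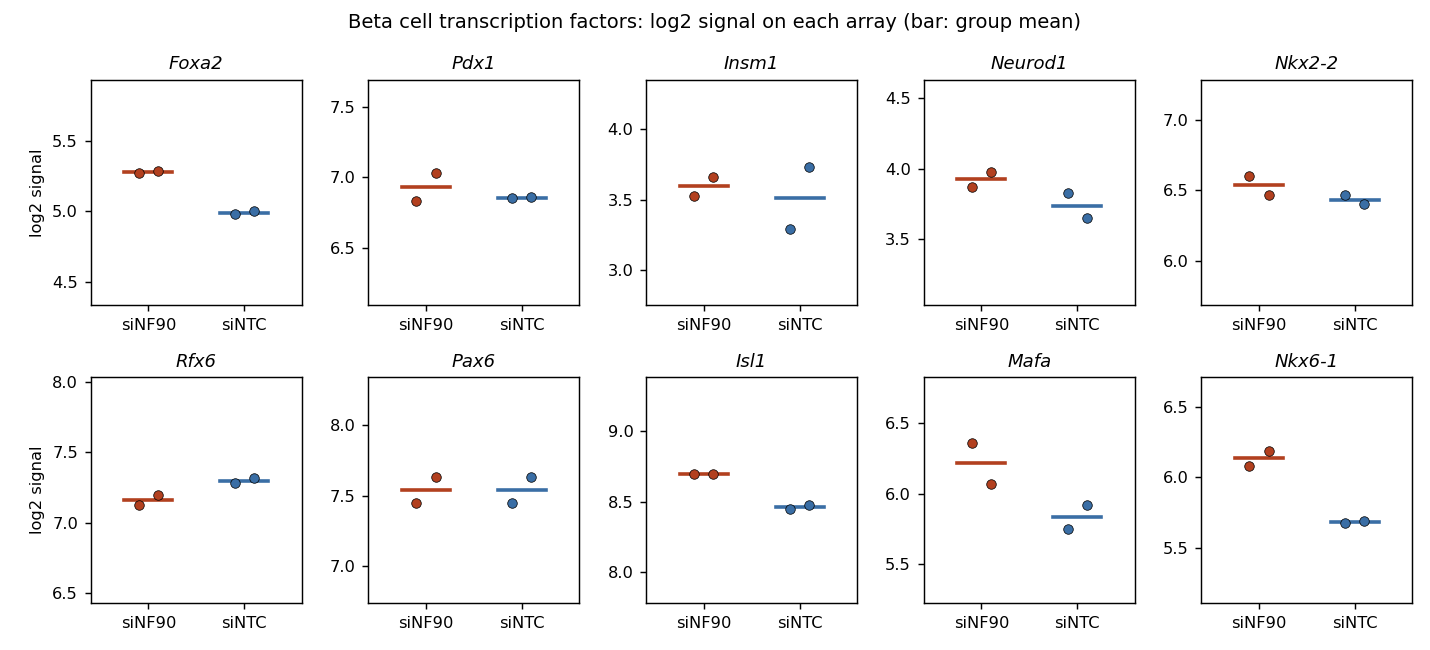
Log2 signal (y axis, same span of 1.6 in each panel) of the 10 transcription factors on each siNF90 array (left, red) and each siNTC array (right, blue), with bars at the group means. Nkx6-1, Mafa, Foxa2, Isl1 and Neurod1 have both red points above both blue points, and Rfx6 has both below.

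Of the early factors, Foxa2, a forkhead protein that opens chromatin for other factors, read 5.27 and 5.29 on the siNF90 arrays, against 4.98 and 5 on the siNTC arrays. The groups stood 0.27 apart at their nearest arrays, while arrays of 1 group differed by 0.02. The difference of 0.29 ± 0.12 (log2, SE of the fit) is 1.22-fold and fell short of the threshold (limma adjusted p = 0.481). Pdx1, a homeodomain protein that activates the insulin gene, read 6.83 and 7.03 in siNF90, against 6.85 and 6.86 in siNTC. The siNTC values lay between the siNF90 values, and the difference of 0.08 was smaller than the gap of 0.20 between the siNF90 arrays. Its 95% interval ran from -0.24 to 0.39, and without the second siNF90 array the difference was -0.025.

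Among the factors of the endocrine lineage, Isl1, a LIM homeodomain protein, read 8.70 and 8.70 in siNF90, against 8.45 and 8.48 in siNTC. Both siNF90 arrays gave the same value and both were higher. The fit's standard error is held up by the variance shared over genes, and the 1.18-fold difference of 0.24 ± 0.12 did not pass (limma adjusted p = 0.553). Neurod1, a basic helix-loop-helix activator of the insulin gene, read 3.87 and 3.98 in siNF90, against 3.83 and 3.65 in siNTC. The groups did not overlap but came within 0.04 of each other. The difference was 0.04 between the arrays numbered 1 and 0.33 between those numbered 2.

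Insm1, a zinc finger repressor needed to form endocrine cells, read 3.53 and 3.66 in siNF90, against 3.29 and 3.73 in siNTC. The first siNTC array was the lowest and the second the highest of the 4, so the groups overlapped. Without that first siNTC array the difference of 0.09 became -0.14. Nkx2-2, a homeodomain protein that represses genes of other islet cell types, read 6.60 and 6.47 in siNF90, against 6.47 and 6.40 in siNTC. The lower siNF90 array equalled the higher siNTC array, and the 95% interval of the difference ran from -0.20 to 0.40.

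Pax6, a paired-box and homeodomain protein that activates hormone genes across the islet, read 7.45 and 7.63 in siNF90, against 7.45 and 7.63 in siNTC. The difference was 0.00 with a 95% interval of -0.34 to 0.34, which allows a shift in either direction of the size seen in Foxa2. Rfx6, a winged-helix factor that maintains genes of insulin secretion, read 7.13 and 7.20 in siNF90, against 7.28 and 7.32 in siNTC. It was the only one of the 10 lower in siNF90 on both arrays, by a difference of -0.14 ± 0.12 (limma adjusted p = 0.752).

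The largest differences of the 10 were those of Nkx6-1 and Mafa. Pdx1, which also marks the mature beta cell, differed by 0.075 with overlapping groups, so the size did not follow that class as a whole. Nkx6-1, a homeodomain repressor of genes of other islet cells, read 6.08 and 6.19 in siNF90, against 5.68 and 5.69 in siNTC. Every siNF90 value exceeded every siNTC value by at least 0.39, and the 95% interval of the 1.37-fold difference (0.45 ± 0.12) ran from 0.16 to 0.74. By p it ranked 534 among the 22180 genes, the highest rank of the 10, and it did not pass after adjustment (limma adjusted p = 0.397, and 0.104 with the trend). Leaving out each array in turn gave differences of 0.40 to 0.51. Mafa, a leucine zipper activator of the insulin gene, read 6.36 and 6.07 in siNF90, against 5.75 and 5.92 in siNTC. The groups came within 0.15 of each other, and the arrays differed by 0.29 within siNF90. Its 1.30-fold difference of 0.38 ± 0.15 (limma adjusted p = 0.481) was 0.61 between the arrays numbered 1 and 0.15 between those numbered 2. Without the first siNF90 array it was 0.24, below the 0.30 of Foxa2 in that setting, and without the second 0.53. With any other array left out, Mafa stayed above Foxa2.

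**Figure D2:**
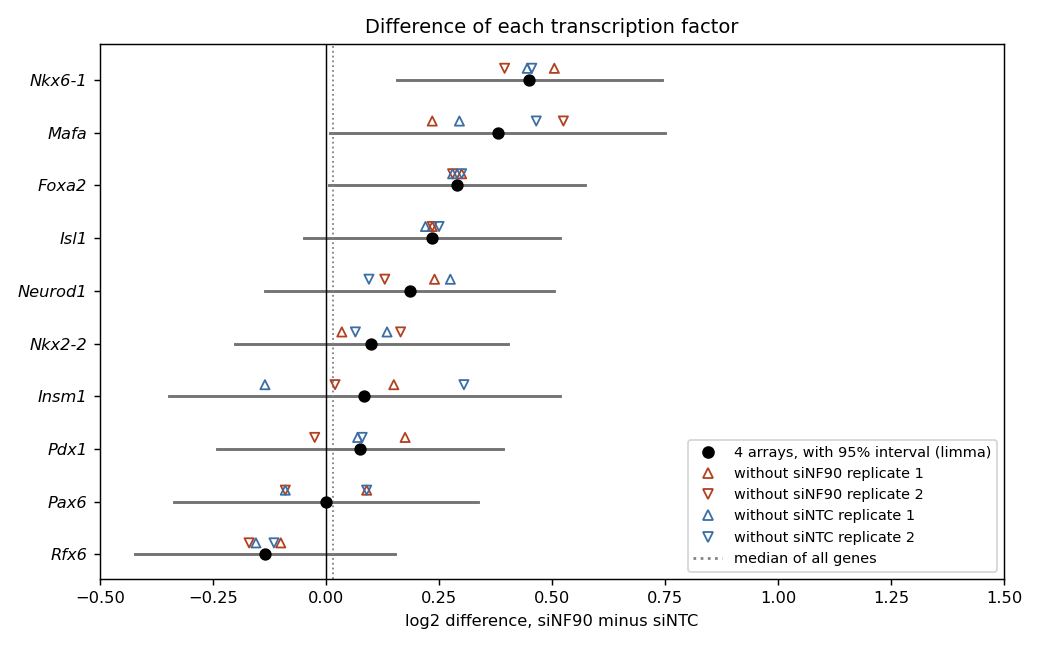
Log2 difference in signal (x axis, siNF90 minus siNTC) of each factor over the 4 arrays (black points, with the 95% interval of limma's fit as a line) and with each array left out in turn (open triangles). Nkx6-1 at 0.45 lies highest and its triangles span 0.40 to 0.51, while those of Pdx1, Insm1 and Pax6 lie on both sides of 0.

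By the root mean square distance between values centred over the 4 arrays, the genes most like Nkx6-1 were Sdf2l1, an endoplasmic reticulum protein, at 0.013, the microRNA gene Mir323 at 0.015, and Neu1, a lysosomal sialidase, at 0.016. Of the 11454 other genes at or above the median level, 470 lay within 0.1 of Nkx6-1, so 4 arrays leave many genes with nearly its profile.

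The promoters of 4 factors are shown because these genes span the range of the differences: Nkx6-1 with the largest, Isl1 with its arrays apart by more than their spread, Pdx1 with its groups overlapping, and Rfx6, the lowest. The RefSeq promoter table (GRCm38.p6) held 11 entries for 8 of the 10 factors, and the 250 bases before the start given for each entry were read. The windows shown lie at chr5:101664712-101664961 (minus strand), chr13:116309689-116309938 (minus strand), chr5:147269847-147270096 (plus strand) and chr10:51685268-51685517 (plus strand). Those of Nkx6-1, Isl1 and Pdx1 border the annotated span of their gene. The Rfx6 window lies inside its gene's span (chr10:51677760-51730429), so it is not the stretch before that span. Capitals mark CANNTG, the E-box read by helix-loop-helix dimers such as Neurod1 with a product of Tcf3, and TAAT or its reverse complement, the core read by many homeodomain proteins.
Nkx6-1: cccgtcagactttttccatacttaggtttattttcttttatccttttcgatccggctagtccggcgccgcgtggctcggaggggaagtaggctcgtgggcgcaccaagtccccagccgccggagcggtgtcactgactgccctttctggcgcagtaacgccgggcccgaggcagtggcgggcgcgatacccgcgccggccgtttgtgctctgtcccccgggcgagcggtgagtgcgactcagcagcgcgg
Isl1: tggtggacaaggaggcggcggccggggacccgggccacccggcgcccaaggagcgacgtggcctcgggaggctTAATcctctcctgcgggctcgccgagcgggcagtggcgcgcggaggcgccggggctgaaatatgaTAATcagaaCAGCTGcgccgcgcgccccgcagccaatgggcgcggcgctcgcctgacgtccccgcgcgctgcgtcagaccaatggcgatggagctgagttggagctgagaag
Pdx1: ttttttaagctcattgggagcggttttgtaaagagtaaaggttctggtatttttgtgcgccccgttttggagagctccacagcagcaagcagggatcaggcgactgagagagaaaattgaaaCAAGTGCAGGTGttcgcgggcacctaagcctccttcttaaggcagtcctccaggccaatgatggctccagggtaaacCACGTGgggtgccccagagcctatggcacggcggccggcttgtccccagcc
Rfx6: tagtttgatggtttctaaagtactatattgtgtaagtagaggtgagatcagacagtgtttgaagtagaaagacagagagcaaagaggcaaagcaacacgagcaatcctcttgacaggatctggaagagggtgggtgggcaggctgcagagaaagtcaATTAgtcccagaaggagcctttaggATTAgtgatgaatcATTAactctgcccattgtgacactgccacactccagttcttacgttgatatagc

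Nkx6-1, which differed most, had neither motif in this window. Pdx1 had 3 E-boxes and no TAAT, Rfx6 had 3 TAAT cores and no E-box, and Isl1 had 1 E-box and 2 TAAT cores. Over all 32851 promoters of the table, 66.2% held an E-box and 54.9% a TAAT core on either strand, beside 6 and 7 of the 11 entries of these factors, and no base was shared between an E-box and a TAAT core. The forkhead core TGTTTAC was in 0 of the 11 entries and in 3.17% of all promoters, and TGCTGAC, part of the Maf recognition element, in 1 entry, of Foxa2, and in 3.81% of all. The share of G and C was 65.2% for Nkx6-1, 71.2% for Isl1, 54.8% for Pdx1 and 44.0% for Rfx6, beside a median of 52.4% over all promoters. These matches describe the windows, and no binding was measured.

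Other transcription factors of the islet divided evenly. Of 26 listed, 22 were measured, 11 higher and 11 lower in siNF90, with a median log2 difference of 0.015. None passed limma after adjustment, with the trend or without it; at an unadjusted p under 0.05, 2 were higher and 1 lower, beside 5.87% and 4.41% of all genes. Hnf4a, a nuclear receptor mutated in a familial diabetes of the young, read 2.96 and 3.16 in siNF90, against 2.76 and 2.56 in siNTC, both siNF90 arrays being higher. Tshz1, a zinc finger factor of beta cell maturity, read 6.75 and 6.70 in siNF90, against 6.47 and 6.30 in siNTC, also with no overlap. Glis3, which activates the insulin gene, was lower on both siNF90 arrays, at 3.08 and 3.14, against 3.33 and 3.53 in siNTC. Pax4, a relative of Pax6 and a repressor of alpha cell genes, overlapped between groups, at 3.01 and 3.42 in siNF90, against 3.31 and 3.74 in siNTC.

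Of 18 close relatives of the 10 factors, 17 were measured and only 6 reached the median level in either group. Maf, a relative of Mafa, had the largest difference above 0, at 0.32 ± 0.14 (limma adjusted p = 0.511), with 6.32 and 6.56 in siNF90, against 6.07 and 6.18 in siNTC. Without the first siNF90 array it was 0.44, and without the second 0.20; with the mean of its probe sets it was 0.24. Nkx6-2, the nearest relative of Nkx6-1, read 2.63 and 2.19 in siNF90, against 2.19 and 2.19 in siNTC, so its difference came from 1 array. Cdx2, a homeodomain factor related to Pdx1, had a difference of 0.11 with overlapping groups. Pax6os1, the antisense transcript at the Pax6 locus, was lower on both siNF90 arrays, at 2.28 and 1.75, against 2.67 and 2.55 in siNTC (-0.60 ± 0.20, limma adjusted p = 0.432), while the Pax6 means were equal. With an array left out the Pax6os1 difference lay between -0.86 (first siNF90 array omitted) and -0.33 (second siNF90 array omitted).

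The proteins that work with these factors were measured for 22 of 23 listed genes, of which 14 were higher and 8 lower in siNF90, with a median difference of 0.08. Tcf3, whose E protein products pair with Neurod1, had the largest, at 3.54 and 3.39 in siNF90, against 2.97 and 2.93 in siNTC. Its groups were 0.52 ± 0.12 apart in mean, which did not pass over all genes (limma adjusted p = 0.360, and 0.255 with the trend). Meis2, a homeodomain cofactor of Pdx1, read 5.40 and 5.11 in siNF90, against 4.84 and 4.89 in siNTC, both siNF90 arrays higher. Ssbp3, which joins the Ldb1 complex that works with Isl1, read 4.35 and 4.63 in siNF90, against 4.12 and 4.28 in siNTC. Tle1, a Groucho corepressor, was lower on both siNF90 arrays, at 4.08 and 3.95, against 4.39 and 4.29 in siNTC. The Tle1 difference of -0.33 became -0.10 when the mean of its probe sets was taken.

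Beta cell genes listed as downstream of these factors were lower in siNF90 more than higher, 15 against 7 of 22 measured, with a median difference of -0.06. The siNF90 arrays were both below the siNTC arrays in 9 of them and both above in 3, beside 17.9% and 21.9% of all genes (21.8% and 26.3% of those at or above the median level). Slc2a2, the glucose transporter GLUT2 and a textbook target of Pdx1, read 4.78 and 4.86 in siNF90, against 6 and 5.80 in siNTC. This difference of -1.08 ± 0.13 did not pass limma without a trend (adjusted p = 0.342) and passed with it (adjusted p = 0.0153). Over the 4 arrays 8 of the 10 factors were higher in siNF90, Rfx6 was lower (-0.14) and Pax6 was equal. Pdx1 had overlapping groups, and without the second siNF90 array its difference was -0.025. A link between the factors and Slc2a2 was not tested. Kcnj11, a subunit of the ATP-sensitive potassium channel, was also lower on both siNF90 arrays, at 3.79 and 3.97, against 4.43 and 4.23 in siNTC (limma adjusted p = 0.417). Casr, the calcium-sensing receptor, read 3.47 and 3.72 in siNF90, against 3.85 and 4 in siNTC.

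Ptprn, a membrane protein of the insulin granule, went the other way, at 9.12 and 8.98 in siNF90, against 8.62 and 8.69 in siNTC, and passed limma only with the trend (adjusted p = 0.0405). Ins2, the insulin gene that Pdx1, Neurod1 and Mafa activate together, read 7.88 and 8.01 in siNF90, against 7.98 and 8 in siNTC, and the groups overlapped. Iapp (amylin) read 10.27 and 10.33 in siNF90, against 10.58 and 10.35 in siNTC, and the zinc transporter Slc30a8 read 9.50 and 9.43 in siNF90, against 9.64 and 9.74 in siNTC. Both were lower on both siNF90 arrays without passing the test in either form.

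**Figure D3:**
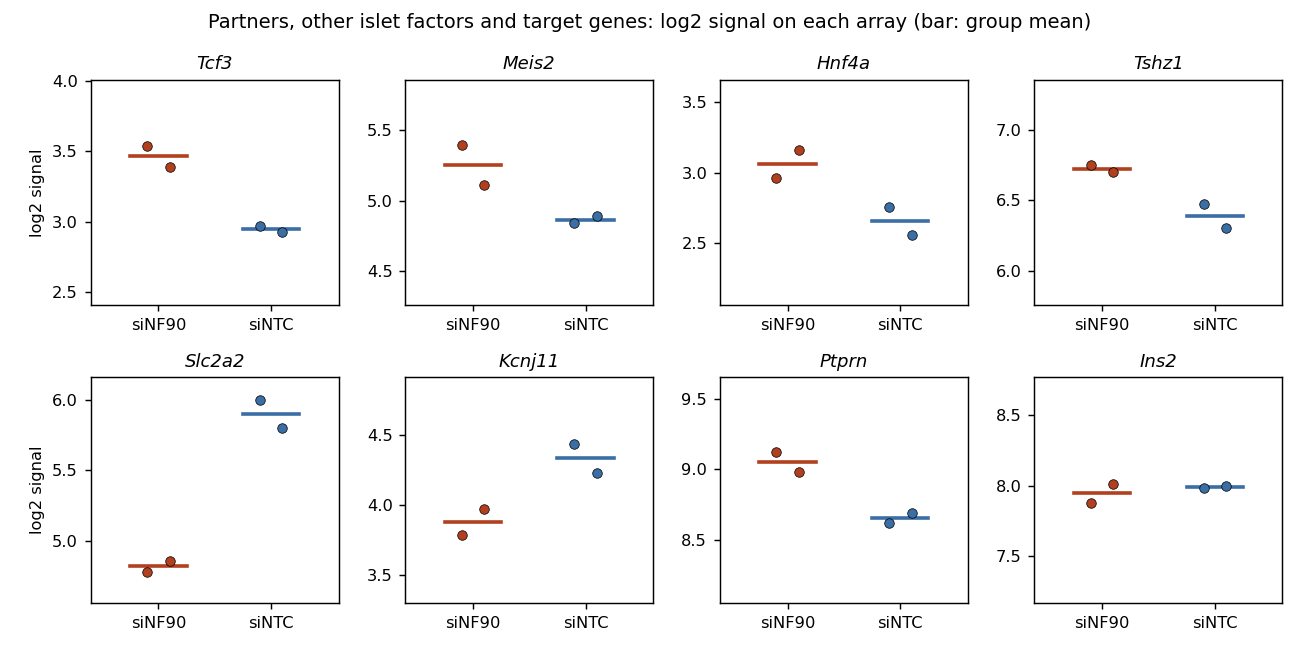
Log2 signal (y axis, same span of 1.6 in each panel) on each siNF90 array (left, red) and each siNTC array (right, blue) for the cofactors Tcf3 and Meis2, the islet factors Hnf4a and Tshz1, and the target genes Slc2a2, Kcnj11, Ptprn and Ins2, with bars at the group means. Slc2a2 shows the widest separation, near 4.8 in siNF90 and near 5.9 in siNTC, and Ins2 overlaps.

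The labelled cell type was checked against its markers. Of the 6 beta cell markers measured, 5 reached the median level, and Ucn3, a marker of mature beta cells, did not. All 6 are also among the target genes above, so their differences repeat values already counted there. In siNF90 5 of the 6 were lower and 1 higher. For 4 of the lower ones the groups did not overlap. Both siNF90 arrays were below in 17.9% of all genes and in 21.8% of those at or above the median level. Among these 4, G6pc2 differed by -0.045, and the nearest Iapp arrays read 10.33 in siNF90 and 10.35 in siNTC. The summed signal of the 6 markers stood at 11.51 and 11.53 (log2) in siNF90, against 11.72 and 11.63 in siNTC. Iapp, Slc30a8 and G6pc2 make up most of that sum, so it says little of Slc2a2 and Ucn3. Among the 6 alpha cell markers measured 5 reached the median level, among them Gcg (glucagon) at 8.88 and 8.78 in siNF90, against 8.50 and 8.75 in siNTC, and Ttr at 10.41 and 10.35 in siNF90, against 10.29 and 10.29 in siNTC. Of the alpha markers 5 were higher and 1, Dpp4, lower in siNF90, and their signals summed on the linear scale stood at 10.89 and 10.82 (log2) in siNF90, against 10.71 and 10.77 in siNTC. Ttr (difference 0.09) and Gcg (0.205) make up most of that sum, so it says little of the other alpha markers. Since Pax6, Isl1, Neurod1, Foxa2, Insm1, Nkx2-2 and Rfx6 are shared with alpha cells, these values stand beside theirs, and their part in the differences was not tested. Irx2, an alpha cell factor, read 4.36 and 4.06 in siNF90, against 3.95 and 3.87 in siNTC.

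Sst (somatostatin) of delta cells was lower on both siNF90 arrays, at 6.72 and 6.54, against 6.86 and 6.86 in siNTC. The summed delta, PP and epsilon markers stood at 6.88 and 6.77 in siNF90, against 7.03 and 7.03 in siNTC. Sst makes up most of that sum. Of the 5 genes of the list 2 were higher and 3 lower in siNF90, with a median difference of -0.015. Only 1 of 6 acinar markers (Bhlha15), 1 of 5 duct markers (Krt7) and 1 of 9 stromal, endothelial and blood markers (Cd68) reached the median level in either group. Bhlha15 read 3.34 and 3.07 in siNF90, against 2.94 and 2.95 in siNTC, and Krt7 read 3.90 and 4.13 in siNF90, against 3.94 and 3.89 in siNTC. Cd68, a lysosomal glycoprotein abundant in macrophages, read 4.44 and 4.48 in siNF90, against 3.32 and 3.35 in siNTC, and the summed signal of its list stood at 5.33 and 5.35 in siNF90, against 4.84 and 4.89 in siNTC. Of the 9 genes of that list 3 were higher and 6 lower in siNF90, with a median of -0.03, and the macrophage marker Adgre1 read 1.06 and 0.98 in siNF90, against 1.04 and 1.06 in siNTC. Ptprc, the leukocyte marker, lay between 0.92 and 1.33 on all arrays.

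**Figure D4:**
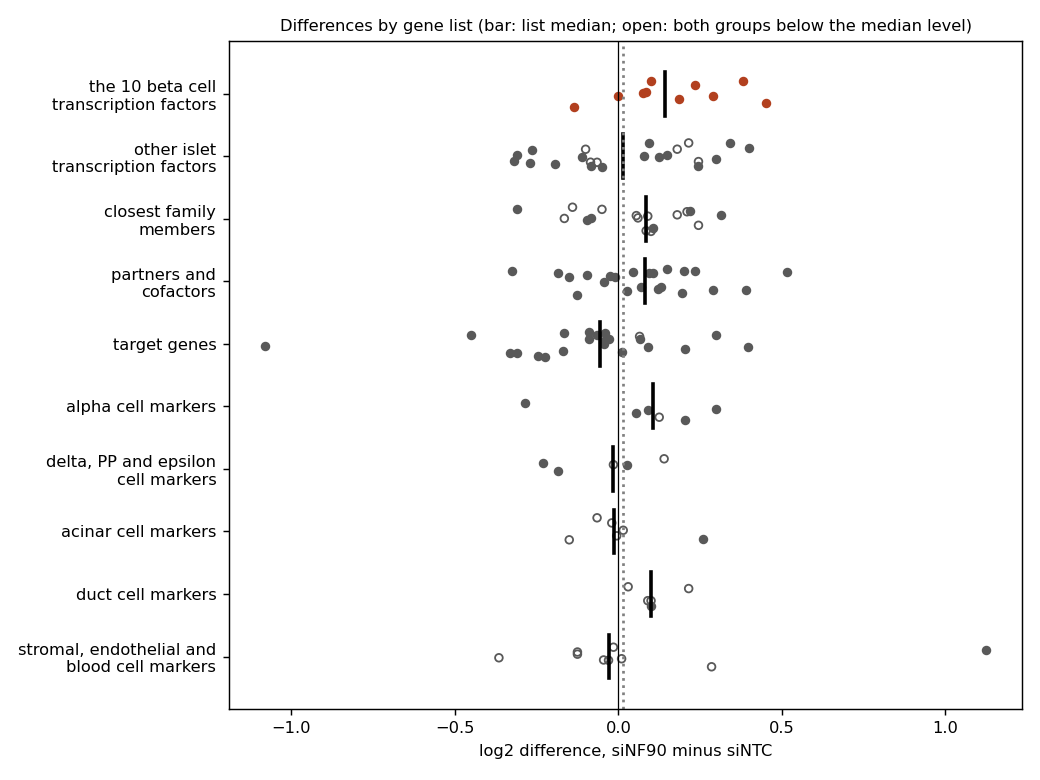
Log2 difference (x axis, siNF90 minus siNTC) of each gene of 10 lists, one row per list, with filled points for genes that reached the median level in either group, black bars at list medians and a dotted line at the median of all genes (0.015). The 10 beta cell factors have a median of 0.14 and their target genes one of -0.06, with Slc2a2 at -1.08 on the far left.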

How the data were processed

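Per the submitters' processing notes, the authors made the values with Transcriptome Analysis Console; no version, background correction or normalization is stated in the sources used here. The deposited table holds a log2 value for 41345 probe sets on 4 arrays; base 2 was inferred because 5 to 10 values per array exceed 11.09, the natural log of the largest scanner reading. It holds no measure of background. Array medians were 1.65 and 1.66 in siNF90 and 1.68 and 1.66 in siNTC.

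The platform annotation supplied probe set names (23521 with 1 symbol, 1814 with several, 16010 with none). Where 1082 genes had several probe sets, the one with the highest mean was kept, leaving 22180 genes. Differences were fitted with limma 3.58.1 in R 4.3.3 (lmFit, eBayes without trend, siNF90 minus siNTC, two-sided, Benjamini-Hochberg over all genes, threshold 0.05), with 2 residual and 3.92 prior degrees of freedom. The fit was tested on simulated data. With 2 arrays a group, the smallest two-sided p of an exact permutation test is 0.33, so none was run. Non-overlap means strictly separate values.

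The members and lists were chosen with earlier results of these data known. Named list genes are the 4 with the largest difference among those at or above the median level, and Ins2, Slc2a2 and Hnf4a; some genes of the lists are not reported here. Ucn3, Ptprc, Adgre1, Sytl4, Gjd2, St18, Mlxipl and Mnx1 were named after their values were seen. The alternatives were a block for the replicate number, a prior with a trend, robust or absent, quantile normalization, median centring, a level filter, the mean of probe sets, every probe set, and leaving out each array.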

Additional observations from a re-analysis of the deposited data

How the results depend on the processing

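Across the 13 alternatives, 0 of the 10 factors reached the threshold in limma (adjusted p between 0.104 and 1). The count of all genes past the threshold was 0 except with the trend, where it was 101 (52 higher, 49 lower); Slc2a2 (-1.08), Ptprn (0.40) and Cd68 (1.12) were then past it. Both scaling alternatives gave 9 factors higher and 7 with separate groups, beside 8 and 6 as reported. The factor gained in the first count was Pax6, at 0.00125 with quantile normalization and 0.015 with median centring. Leaving out each array gave 7 to 9 factors higher, 7 to 8 with separate groups and a median difference of 0.15 to 0.20 (0.14 with 4 arrays); a group of 1 array separates more easily, and the fit assumes that it varies like the other group. Pax6, at 0.00, ranged from -0.09 to 0.09 with an array left out. Of the 50 genes tried, signs turned in 10 others, none of them called: without the second siNF90 array for Pdx1 (range over the 4 left-out arrays -0.025 to 0.175), Cdx2 (-0.09 to 0.30; -0.035 there), Ghrl (-0.085 to 0.135), Krt7 (-0.015 to 0.215) and Adgre1 (-0.07 to 0.01), without the first for Ins2 (-0.11 to 0.02), Ppy (-0.395 to 0.025) and Ucn3 (-0.17 to 0.30), without the first siNTC array for Insm1 (-0.135 to 0.305) and Cdx2, and without the second for Ptprc (-0.22 to 0.19). A further 16 did not turn sign (Nkx6-2 reached 0) but moved by over 1.5 times, among them Mafa (0.24 to 0.53), Neurod1 (0.10 to 0.28) and Nkx2-2 (0.04 to 0.17), and outside the 10 factors Pax6os1, Maf, Pax4, Meis2, Ssbp3, Nkx6-2, Casr, Iapp, Irx2, Gcg, Sst, Bhlha15 and Gjd2. The replicate number as a block called 0 genes, and the factors' adjusted p ran from 0.591 to 1. The numbers are not stated to mark a shared culture or day, and deviations of same-numbered arrays correlated at -0.02 over all genes. The number of arrays limits the precision, and without a background measure no low signal can be called absent.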

Other observations

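Among genes outside the text so far, Sytl4 (granuphilin, a protein that docks insulin granules) and Gjd2 (a connexin, the gap junction protein that couples beta cells) were lower on both siNF90 arrays. Sytl4 read 5.97 and 6.01 in siNF90, against 6.20 and 6.27 in siNTC, and Gjd2 read 3 and 3.21 in siNF90, against 3.47 and 3.36 in siNTC. St18, a zinc finger factor of the islet, was lower on both siNF90 arrays, at 6.85 and 6.91, against 7.11 and 7.18 in siNTC, and Mlxipl (ChREBP, which responds to glucose) was lower at 7.26 and 7.25 in siNF90, against 7.39 and 7.51 in siNTC. Mnx1, a homeodomain factor of beta cells, was higher, at 3.30 and 3.16 in siNF90, against 2.92 and 2.94 in siNTC. All 5 were named after their values were seen, and all missed the threshold in limma (adjusted p between 0.486 and 0.637).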
